A study of Mus musculus with 23 samples.

Results

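The genes described here are the ones that encode, place and escort the histone variant H3.3: the H3.3 genes H3f3a and H3f3b, the remodeller and chaperone pair Atrx and Daxx, the HIRA complex genes Hira, Ubn1, Ubn2 and Cabin1, and the histone carriers Asf1a and Asf1b. They were chosen by name, as 10 of the 39017 rows of the count tables, and all 10 passed the filter on low counts in both fits. The RNA came from C57BL/6 mouse brain cells: GFP-positive cells, grown in culture after sorting, from brains electroporated in utero with piggyBac vectors. The 23 libraries fell into 8 groups, 15 preneoplastic libraries taken at 72 h and 8 tumour libraries at 5 to 9 months. Total counts ran from 37300947 to 68642582 per library.

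The preneoplastic groups were wild-type cells with an empty vector (EV ctl, n = 2), cells overexpressing Pdgfra alone (EV-PDGFRA, n = 3), and cells overexpressing wild-type H3.3 with Trp53 loss and a short hairpin RNA against Atrx (WT-AP, n = 4). K27M-AP (n = 4) had H3.3 with methionine in place of lysine 27 instead of the wild-type histone, and K27M-APP (n = 2) had Pdgfra in addition. The tumour groups K27M-AP T (n = 3) and K27M-APP T (n = 4) carried the same sets, and K27M-P T (n = 1) had the mutant H3.3 and Trp53 loss without the hairpin. Thus the hairpin came with Trp53 loss and a delivered H3.3 in every preneoplastic group that had it, and the 3 manipulations cannot be told apart there. Whether the libraries within a group derive from different animals or cultures is not given, so p-values measure only the spread between these samples.

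H3.3 is the replication-independent form of histone H3, made throughout the cell cycle. ATRX with DAXX places it in heterochromatin and at telomeres, the HIRA complex of HIRA, ubinuclein and CABIN1 places it in active genes, and the ASF1 proteins hand H3 and H4 to these and to the replication-coupled chaperones. Loss of ATRX and mutation of H3.3 are both known from paediatric gliomas.

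The mouse H3.3 genes encode the same protein from different DNA, which is what lets reads be assigned to one or the other. The stretch around the lysine 27 codon, in capitals, is shown from each coding sequence (bases 55 to 111, GRCm38, both on the minus strand), since this is the codon that the delivered mutant alters. H3f3a lies at chr1:180811816-180811872 and H3f3b at chr11:116023899-116023955.
H3f3a: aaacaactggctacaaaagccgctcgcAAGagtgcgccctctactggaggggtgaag
H3f3b: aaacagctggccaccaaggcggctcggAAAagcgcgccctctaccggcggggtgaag
Of the 57 bases shown, 10 differed, and of the 411 coding bases 95 differed, with 0 of the encoded residues different. The longest run without a difference was 23 bases. By contrast, 3 other rows of the tables were near-copies of H3f3a: H3f3c, H3f3a-ps1 and H3f3a-ps2 were 99.0%, 98.3% and 98.8% identical to its coding sequence. Over all libraries H3f3a held 274535 reads, H3f3c 62408, H3f3a-ps2 36152 and H3f3a-ps1 7410, against 682518 for H3f3b. The handling of reads with several matches is not given in the sources used here, so H3f3a counts are uncertain to that extent. Only rows whose symbols begin with H3f3 were compared. Copies of either gene under other names were not sought, so H3f3b counts cannot be called the more certain ones. The labels give neither the species nor the codons of the delivered H3.3, and its reads cannot be told apart from those of the endogenous genes.

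The labelled cell type was checked first. The neural progenitor markers Nes, Sox2, Vim, Fabp7, Hes5, Slc1a3 and Pax6 were all above 1 CPM on average in every group, with summed levels from 3621 to 12153 CPM per library. CPM here is the count relative to the library total after scaling by trimmed means. Markers of other neural cells were also present, with sums of 222 to 1309 CPM for neurons, 102 to 1312 for astrocytes and 912 to 2439 for the oligodendrocyte lineage over the libraries. In the averaged hairpin comparison none of these was called, with medians of 0.59, -0.24 and 0.36. Markers of red blood cells stood at or near 0, and the most abundant microglial, endothelial and fibroblast markers reached 11.7 CPM (Csf1r), 16.8 CPM (Kdr) and 4.85 CPM (Col1a1). Mki67, a marker of cycling cells, stood at 19.2 CPM in K27M-AP 4 and 44.1 in EV ctl 5, against 188 to 921 in the other 21 libraries. K27M-AP 4 was also low in the progenitor marker Nes, at 97.7 CPM, against 563 to 2015 in the remaining libraries. Of the 7 progenitor markers, 2 fell with the hairpin at 72 h, Vim by 0.93 and Slc1a3 by 0.61 on the log2 scale (adjusted p = 0.0220 and 0.0475 by edgeR), and 3 had positive values, with a median of -0.05. Their sums, in which Vim was the most abundant gene, were 7544 to 8955 CPM in the 5 libraries without the hairpin and 3621 to 6629 in the 10 with it. The endothelial gene Kdr and the fibroblast gene Col1a2 rose there, by 1.55 and 3.53, at sums of at most 9.74 and 4.04 CPM for those lists. Trp53 fell by 1.39 (adjusted p = 0.000176). Of 5 sex-linked genes, 1 was called in the same comparison, as risen, with a median of -0.26. The X-inactivation RNA Xist stood at 279 and 45.5 CPM in EV ctl and 0.0392 to 0.136 in EV-PDGFRA. In the 10 preneoplastic hairpin libraries it ran from 0.0482 to 239 CPM. These marker differences stand beside every hairpin value that follows, including that of the X-linked Atrx, and their part in them was not tested. Libraries also came from 2 count tables, 13 from an earlier one and 10 found in a later one alone.

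With regard to their labels, 2 libraries stood apart. The library labelled WT-AP 1 held Atrx RNA at the level of cells without the hairpin, as described next, although its Trp53 was 16.1 CPM, within the 13.4 to 27.9 CPM of the preneoplastic cells labelled Trp53-/-. The library labelled K27M-AP T 4 held 49.3 CPM of Trp53, against 11.1 and 9.87 in the other K27M-AP T libraries and 41.4 to 52.8 in EV ctl and EV-PDGFRA. Values without them are given beside the results they moved most. Leaving out the library labelled WT-AP 1 or K27M-AP T 4 left the number of members called the same in every comparison that holds it. In bulk RNA, fewer cells of a type and less RNA per cell cannot be told apart.

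Atrx (ENSMUSG00000031229, chrX:105797615-105929403, minus strand), the hairpin target, was lower where the hairpin was delivered, but by amounts that varied between libraries. Without the hairpin, EV ctl libraries held 240.1 and 189 CPM of it, EV-PDGFRA libraries 281, 299 and 235, and K27M-P T 292. With the hairpin, the library labelled WT-AP 1 held 258 CPM, and WT-AP 2, 3 and 5 held 109, 159 and 127. K27M-AP libraries held 163, 117, 108 and 129 CPM, and K27M-APP libraries 79.2 and 88.5. Among the tumours with the hairpin, K27M-AP T libraries held 56.0, 125 and 45.8 CPM and K27M-APP T libraries 80.9, 62.3, 54.0 and 106. So 16 of the 17 hairpin libraries lay below all 6 libraries without it, and the library labelled WT-AP 1 alone lay within their range. Without that library, the hairpin and other libraries did not overlap, which follows from picking it out by its Atrx level.

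**Figure D1:**
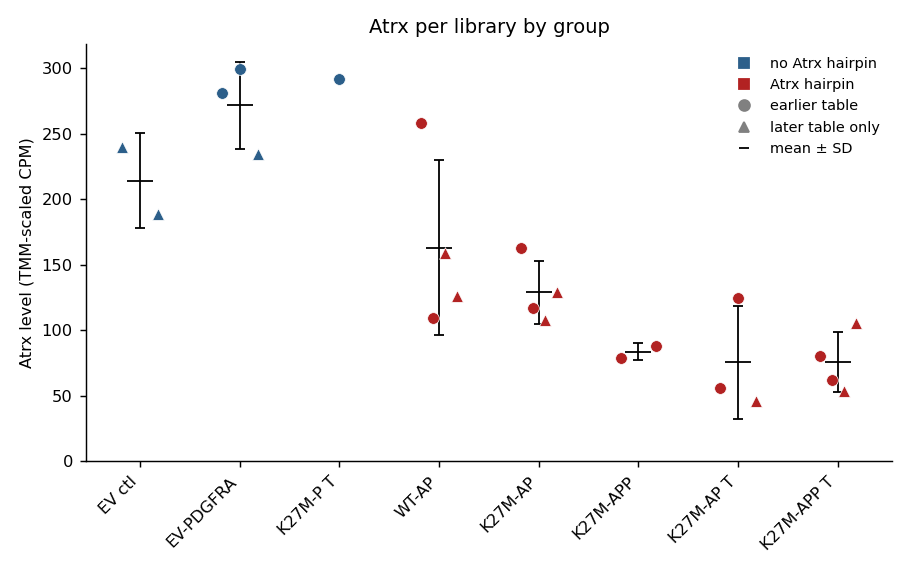
Atrx level (scaled CPM, linear axis from 0) in each of the 23 libraries by group, with blue points for groups without the Atrx hairpin and red for those with it, circles for the earlier and triangles for the later table, and bars for mean ± SD where n is at least 2. The library labelled WT-AP 1 at 258 CPM was the only hairpin library above the lowest library without the hairpin (189 CPM).

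Averaged over WT-AP, K27M-AP and K27M-APP against EV ctl and EV-PDGFRA, Atrx fell by 0.99 on the log2 scale (SE 0.19, 95% interval -1.40 to -0.58, adjusted p = 0.00712 by edgeR's quasi-likelihood test, Benjamini-Hochberg over 20197 genes). This is 1.98-fold lower. It was 1 of 10 members called there, where called means an adjusted p below 0.05, and 8.79% of all genes tested were called, so the count is near the background and says nothing particular about the set. At an unadjusted p below 0.05 stood 4 of 10 members, beside 24.5% of all genes, and 0 of 10 had libraries that did not overlap, beside 2.76%. The libraries overlapped only through the library labelled WT-AP 1, and without it the value was -1.09 (adjusted p = 0.000906). That library was singled out for its high Atrx, so a larger fall and a smaller p without it follow from the choice. They add no support. Within the later table alone, which lacks K27M-APP, it was -0.77 and not called (adjusted p = 0.567), and within the earlier table, against EV-PDGFRA, -1.16 (adjusted p = 0.0483).

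K27M-APP and EV-PDGFRA share the Pdgfra vector and differ in the mutant H3.3, Trp53 loss and the hairpin. In K27M-APP, Atrx fell by 1.71 relative to EV-PDGFRA (SE 0.33, 95% interval -2.42 to -0.99, adjusted p = 0.0238 by edgeR), which is 3.26-fold lower with no overlap between libraries. It was 1 of 10 members called, against 1.94% of all genes, and 3 of 10 had an unadjusted p below 0.05, against 15.5%. With groups of 2 and 3, the call was lost on leaving out EV-PDGFRA 1 (adjusted p = 0.0774), EV-PDGFRA 2 (0.0612), K27M-APP 1 (0.265) or K27M-APP 2 (0.212), at values from -1.80 to -1.62, and with all 23 libraries in the fit (0.0623). Atrx is X-linked, and the X-inactivation RNA Xist stood at 0.0392 to 0.136 CPM in EV-PDGFRA and at 68.1 and 143 CPM in K27M-APP. The part of this Xist difference in the Atrx value was not tested.

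Comparisons of neighbouring groups did not call Atrx. It was -0.36 in WT-AP against EV ctl (95% interval -0.99 to 0.27, adjusted p = 0.707), and without the library labelled WT-AP 1 the value was -0.68. In K27M-AP against WT-AP it was -0.34 (-0.87 to 0.18, adjusted p = 1), and -0.03 without the library labelled WT-AP 1 (adjusted p = 0.981). It was -0.62 in K27M-APP against K27M-AP (-1.28 to 0.03, adjusted p = 0.667), where both K27M-APP libraries lay below all 4 of K27M-AP. Against their preneoplastic counterparts, tumour values were not called: K27M-AP T gave -0.79 (-1.52 to -0.05, adjusted p = 0.382; -0.52 without the library labelled K27M-AP T 4) and K27M-APP T gave -0.14 (-0.95 to 0.68, adjusted p = 1). Xist stood at 74.2 to 183 CPM in K27M-AP and at 168, 0 and 0 in K27M-AP T. In K27M-APP T it stood at 0, 0.130, 0.208 and 295 CPM. The part of Xist differences in these tumour values was not tested. Ordered by mean, the groups ran from K27M-P T and EV-PDGFRA through EV ctl, WT-AP and K27M-AP to K27M-APP, K27M-APP T and K27M-AP T. In that order, K27M-AP and K27M-APP were the only neighbours whose libraries did not overlap.

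Across the 23 libraries, the genes whose pattern was most like that of Atrx were Arl5a (Pearson r = 0.962 of log2 CPM), Atp6v1a (0.928), Dcaf10 (0.918), Prune (0.903) and Ssr3 (0.900), a description that shares the libraries, their depth and their scaling. Arl5a encodes a small GTPase of the Golgi and Atp6v1a a subunit of the proton pump of lysosomes. Arl5a stood at 111 to 145 CPM in the 6 libraries without the hairpin and 34.7 to 114 in the 17 with it, where the highest was again the library labelled WT-AP 1. Dcaf10 had 1 hairpin library and Ssr3 4 above the lowest library without the hairpin. For Atp6v1a the ranges were 204 to 218 and 65.3 to 197 CPM, and for Prune 23.1 to 36.1 and 9.88 to 22.8, so these 2 did not overlap between hairpin and no hairpin. All of these genes were picked for following Atrx over the same libraries, so a split like that of Atrx follows from the choice. It says nothing further about the hairpin.

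Daxx (ENSMUSG00000002307, chr17:33909414-33915590, plus strand), the chaperone that works with Atrx, varied little. EV ctl libraries held 33.2 and 31.5 CPM, and EV-PDGFRA libraries 30.1, 31.6 and 25.8. Hairpin cells held 34.6, 37.1, 35.3 and 39.3 CPM in WT-AP, 37.6, 40.9, 35.3 and 31.9 in K27M-AP, and 36.2 and 35.6 in K27M-APP. Of these 10 libraries, K27M-AP 4 alone lay below the highest preneoplastic library without the hairpin (33.2 CPM). The tumour library without the hairpin, K27M-P T, held 37.4 CPM, within the range of the hairpin cells. The averaged hairpin difference was 0.25 on the log2 scale (SE 0.10, 95% interval 0.04 to 0.45), which edgeR did not call (adjusted p = 0.125) and DESeq2 did (0.26, adjusted p = 0.0282). Over all genes DESeq2 called 3073 in this comparison, against 1775 by edgeR. An increase above 1.37-fold lay outside the interval. Tumours held 30.8 to 44.7 CPM of Daxx.

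The ratio of Atrx to Daxx, each per kb of exon, was 1.05 and 0.867 in EV ctl, 1.32 to 1.37 in EV-PDGFRA and 1.13 in K27M-P T. It was 0.427 to 1.08 in WT-AP, 0.414 to 0.627 in K27M-AP, while K27M-APP libraries had 0.317 and 0.360 and tumours with the hairpin 0.175 to 0.553. The library labelled WT-AP 1 was the only hairpin library with a ratio above the lowest one without the hairpin, 0.867.

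None of the HIRA complex genes was called by edgeR in the averaged hairpin comparison. Ubn1 (chr16:5050057-5086289, plus strand), which encodes ubinuclein 1, the HIRA subunit that contacts H3.3, held 84.2 and 73.6 CPM in the EV ctl libraries and 60.6, 72.2 and 61.3 in EV-PDGFRA. It stood at 85.0, 96.8, 79.1 and 77.2 in WT-AP, 95.8, 96.3, 86.2 and 83.4 in K27M-AP, and 82.5 and 93.1 in K27M-APP. The libraries with and without the hairpin overlapped, since EV ctl 4 lay among the hairpin libraries. The averaged difference was 0.30 (SE 0.10, 95% interval 0.09 to 0.52), with an adjusted p of 0.0807 by edgeR and 0.0151 by DESeq2, whose value was 0.31 and which called 3073 genes in all. Its paralogue Ubn2 was 0.36 higher (SE 0.15, interval 0.03 to 0.68) and not called by edgeR or DESeq2 (adjusted p = 0.159 and 0.117).

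Hira, the scaffold of the complex, and Cabin1, a further subunit, were close to 0 in the same comparison, at 0.02 (95% interval -0.22 to 0.27) and -0.14 (-0.33 to 0.06). Hira stood at 44.1 to 56.7 CPM without the hairpin at 72 h and 43.4 to 66.4 with it. For Cabin1 the ranges were 82.8 to 112 and 72.2 to 100.1 CPM. In K27M-APP against EV-PDGFRA, both K27M-APP libraries of Cabin1 (72.2 and 88.3 CPM) lay below the 3 of EV-PDGFRA (97.8, 106 and 112), at -0.40 (interval -0.72 to -0.08, adjusted p = 0.199 by edgeR). Ubn1 was 0.43 there (0.09 to 0.77, adjusted p = 0.201). Limma's voom with sample weights called Ubn1 (0.43, adjusted p = 0.00754) and Cabin1 (-0.36, adjusted p = 0.0116), with 5142 genes called in all, against 392 by edgeR. In that comparison 6 of 10 members had libraries that did not overlap, and so had 49.4% of all genes.

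**Figure D2:**
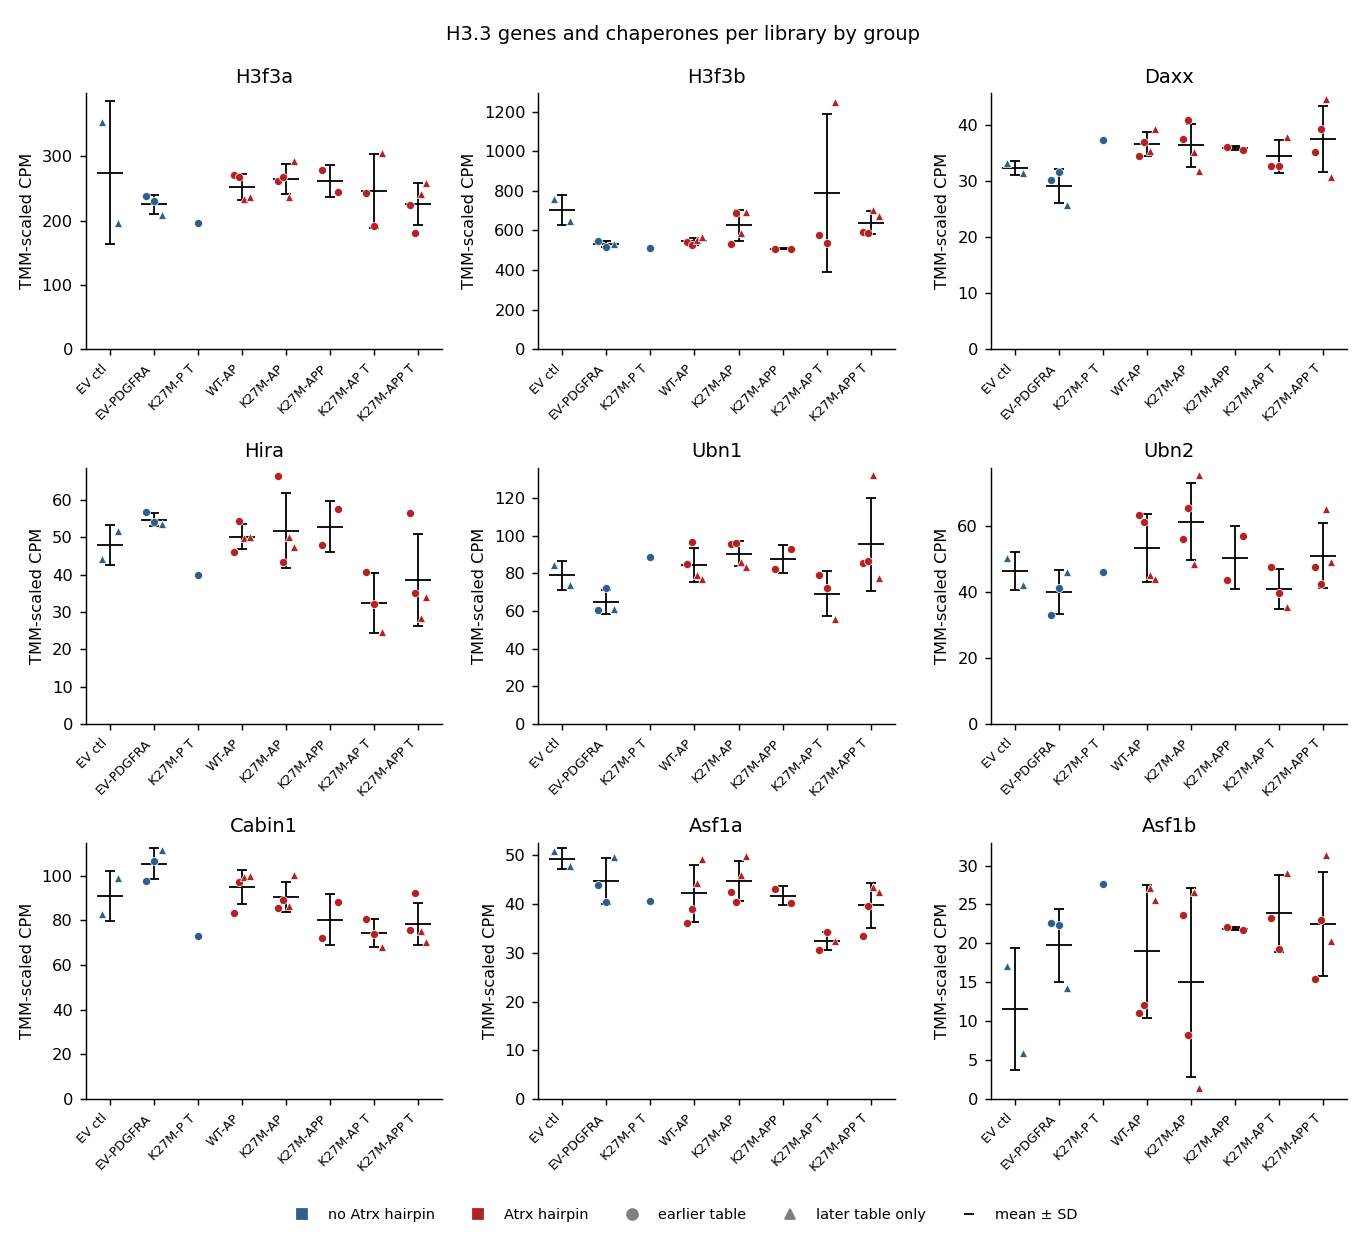
Levels (scaled CPM, linear axes from 0) of the 9 genes other than Atrx in each library by group, with colours and shapes as in the plot of Atrx and bars for mean ± SD where n is at least 2. Daxx stayed between 25.8 and 44.7 CPM, while Asf1b ran from 1.48 to 31.4 CPM and H3f3b reached 1249 CPM in a single K27M-AP T library.

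Whether a partner gene was higher where Atrx was lower was also asked library by library. Over the 10 preneoplastic hairpin libraries, the correlation of log2 CPM with Atrx ran from r = -0.276 for Asf1a to 0.263 for Ubn2 over the 9 other members. For Daxx it was -0.168 (Spearman's rho -0.176) and for Ubn1 -0.145 (rho -0.127). None differed detectably from 0 by two-sided permutation tests (adjusted p = 0.942 for Pearson and 0.918 for Spearman in each of the 9). The permutations ignored the groups, and with 10 libraries a moderate correlation would go undetected. These tests therefore cannot decide whether a partner gene was higher where Atrx was lower. Leaving out the library labelled WT-AP 1 and K27M-APP 1, the libraries farthest from the median of Atrx, the Daxx value was -0.00425 and that of Asf1a turned to 0.335. Within the 6 libraries of the earlier table, Asf1a was -0.660 and Ubn2 0.550, and the later table held 4, too few for a value. These 10 libraries come from 3 groups. With each group's mean taken out, the values ran from -0.433 for Asf1a and -0.431 for Cabin1, which was 0.203 before, to 0.281 for Ubn2, with -0.327 for Daxx.

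Neither H3f3a (chr1:180800832-180813943) nor H3f3b (chr11:116021912-116027962) was called where H3.3 was delivered. H3f3a held 354 and 196 CPM in the EV ctl libraries and 237.5, 229.9 and 209.2 in EV-PDGFRA. The preneoplastic libraries with delivered H3.3 lay within the span of EV ctl: 234 to 270.5 in WT-AP, 236 to 293 in K27M-AP, while K27M-APP held 279 and 244. The averaged hairpin difference, which is also the difference between delivered and not delivered H3.3 at 72 h, was 0.07 for H3f3a (SE 0.13, 95% interval -0.22 to 0.35, adjusted p = 0.797) and -0.13 for H3f3b (SE 0.09, -0.32 to 0.07, adjusted p = 0.410). The H3f3a value rested on single EV ctl libraries, as it was 0.32 without EV ctl 4 (adjusted p = 0.0804) and -0.13 without EV ctl 5 (adjusted p = 0.574). For H3f3b these values were -0.06 and -0.19. The lincRNA Gm17275 overlaps H3f3a on the opposite strand with 143099 reads, and the strand setting of the counting is not stated.

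H3f3b was the more abundant gene per length. It stood at 236 ± 25.8 CPM per kb of exon in EV ctl (SD, n = 2), 178 ± 4.64 in EV-PDGFRA (n = 3), 184 ± 5.95 in WT-AP (n = 4), 210 ± 26.6 in K27M-AP (n = 4) and 170 ± 0.87 in K27M-APP (n = 2). On the same scale H3f3a stood at 56.1 to 78.4 as group means, so H3f3b made 68.1% to 82.8% of their sum in every library. The next in order in EV ctl were Asf1a (13.6 CPM per kb), Daxx (10.3), Atrx (9.85) and Ubn1 (9.54), and the lowest Ubn2 (2.16). Union exon length overstates the length of the transcripts in use where a gene has many isoforms.

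The library labelled K27M-AP T 4 stood apart in H3f3b, at 1249 CPM against 579 and 539 in the other K27M-AP T libraries and 505 to 758 in the remaining 20. The tumour differences were 0.32 in K27M-AP T against K27M-AP (95% interval -0.25 to 0.88, adjusted p = 0.649; without that library -0.17, adjusted p = 0.834) and 0.35 in K27M-APP T against K27M-APP (-0.31 to 1.00, adjusted p = 1). In the latter, all 4 tumour libraries (592, 586, 704 and 675 CPM) lay above both preneoplastic ones (505 and 508). H3f3b was the only 1 of 10 members without overlap there, against 17.4% of all genes. H3f3b was also lower without overlap in K27M-APP than in K27M-AP, at -0.30 (-0.60 to -0.00, adjusted p = 0.667). In that comparison 2 of 10 members did not overlap, beside 19% of all genes.

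The share of H3f3a-type reads on the 3 near-copies split the libraries by count table rather than by group. Of all reads on H3f3a and the copies, 28.5% to 38.2% lay on the copies in the 13 libraries of the earlier table and 21.0% to 24.0% in the 10 of the later table, with no overlap. With the table as a term, H3f3a-ps2 was 1.02 lower in the later table at 72 h (log2 value -1.02, adjusted p = 0.00460 by edgeR) and H3f3c -0.62 (adjusted p = 0.0283), among 1347 genes called. None of the 10 members was called for the table in this fit or in that with the tumours (565 genes called). Members with an unadjusted p below 0.05 were Asf1a (0.23) and Ubn1 (-0.20) at 72 h, and H3f3b (0.40) and Hira (-0.42) in the fit with the tumours. What the tables stand for is not stated.

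Asf1a and Asf1b, the paralogous carriers of H3 and H4, differed in their spread. Asf1a (chr10:53596757-53609225, plus strand) stayed between 30.6 and 50.8 CPM in all libraries. Asf1b (chr8:83955507-83970197, plus strand), the form tied to dividing cells, ran from 1.48 CPM in K27M-AP 4 to 31.4 in K27M-APP T 3. EV ctl libraries held 17.1 and 5.98 CPM of Asf1b, and EV-PDGFRA libraries 22.6, 22.3 and 14.3. WT-AP libraries held 11.1, 12.1, 27.1 and 25.6, K27M-AP libraries 23.7, 8.18, 26.6 and 1.48, and K27M-APP libraries 22.1 and 21.7. The spread lay within groups: its hairpin difference was 0.29 with an SE of 0.52 (95% interval -0.84 to 1.42, adjusted p = 0.767), and every comparison left it uncalled.

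The libraries lowest in Asf1b were not all low in Mki67. K27M-AP 4 and EV ctl 5, the lowest in Asf1b, were also the lowest in Mki67 (19.2 and 44.1 CPM). By contrast, K27M-AP 2 held 8.18 CPM of Asf1b with 685 of Mki67, and the libraries labelled WT-AP 1 and 2 held 11.1 and 12.1 with 459 and 621. The part of dividing cells in these values was not tested.

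**Figure D3:**
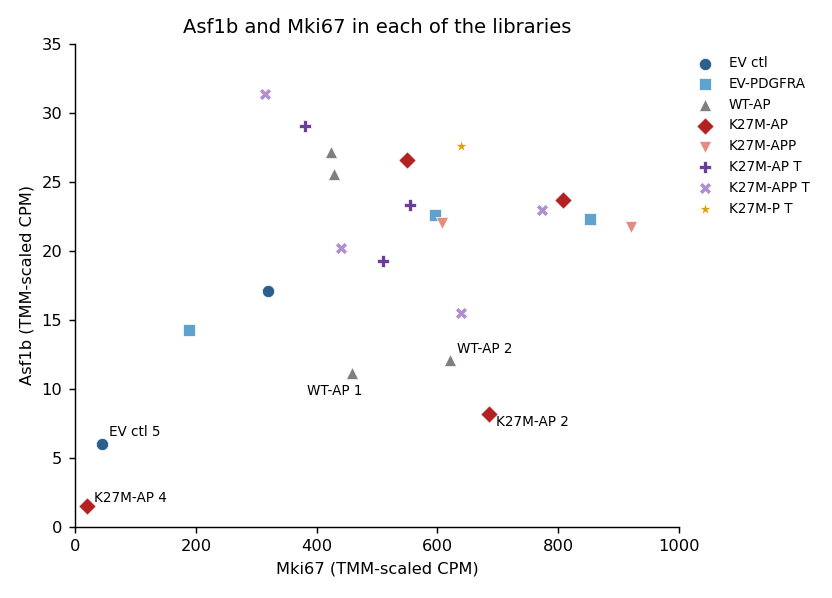
Asf1b against Mki67 (both scaled CPM, linear axes from 0) in each of the 23 libraries, with marker shape and colour for the group. K27M-AP 4 and EV ctl 5 lie low on both axes, while K27M-AP 2, WT-AP 1 and WT-AP 2 lie at 8.18 to 12.1 CPM of Asf1b with Mki67 at 459 to 685 CPM.

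The genes most like Asf1b across the 23 libraries were Prim1 (r = 0.984 of log2 CPM), Fignl1 (0.968), Rad51ap1 (0.968), Cdc45 (0.967) and Rfc4 (0.965). Prim1 encodes a primase subunit, Cdc45 and Rfc4 parts of the replication fork machinery, and Fignl1 and Rad51ap1 factors of recombination repair. These genes were picked for following Asf1b over the same libraries, so low values where Asf1b was low follow from that choice. In the libraries with little Asf1b but ample Mki67, they were low within their group. Prim1 stood at 27.4 CPM in K27M-AP 2 against 54.1 and 57.5 in K27M-AP 1 and 3, with 5.93 in K27M-AP 4. It stood at 25.8 and 32.5 CPM in the libraries labelled WT-AP 1 and 2 against 54.9 and 57.2 in WT-AP 3 and 5. To show the letters before each start, the promoter windows of RefSeq (GRCm38.p6), which span the start site, were searched for CCAAT, for TTTGAA (the core of the cell cycle homology region) and for TTTNNCGC (E2F-like), each on both strands. The Asf1b window held 4 CCAAT matches, all in reverse, 1 TTTGAA match and 0 of TTTNNCGC, and the Asf1a window 1 CCAAT match alone. Pieces of 30 bases at matches nearest to the start sites are shown, plus strand, with the matched letters in capitals, at chr8:83955644-83955673 and chr8:83955669-83955698 for Asf1b and chr10:53596933-53596962 for Asf1a.
Asf1b CCAAT in reverse: ccttagcggcgATTGGctggaaggcggagc
Asf1b TTTGAA: ggagccggctaTTTGAAgggagcgcgctga
Asf1a CCAAT: ctcgggggcagCCAATcgcgggcaacgctg
Of 32851 promoter windows, 37.4% held CCAAT, 17.9% TTTGAA and 5.17% TTTNNCGC. Among the other members, Atrx and H3f3b also held 4 CCAAT matches each, Ubn1 and Cabin1 2, Daxx and H3f3a 1, and Hira and Ubn2 0. Ubn2 held 1 TTTGAA match, and Hira and Cabin1 held 1 TTTNNCGC match each. These matches describe letters in a window and do not show binding.

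For the remaining members the closest patterns across the 23 libraries were less alike. They were those of Fxr1 (r = 0.804) for Daxx, Zfp758 (0.83) for H3f3a, Ramp2 (0.888) for H3f3b, Ints5 (0.894) for Hira and Tet3 (0.822) for Ubn1. For Ubn2 it was Ylpm1 (0.836), for Cabin1 Ap2a1 (0.820) and for Asf1a Tmem128 (0.861). The genes in second place were Bcar3, Zfp944, Vps25, Ccar1, Frmd4b, Wiz, Iqce and Polr2j in the same order.

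In tumours of the K27M-AP set, 5 of the chaperone genes lay below every preneoplastic K27M-AP library, and none was called by edgeR. Asf1a stood at 30.6, 34.3 and 32.5 CPM in the tumours against 42.5, 40.4, 45.9 and 49.8 before, a log2 difference of -0.47 (SE 0.15, 95% interval -0.79 to -0.15, adjusted p = 0.244). Hira stood at 40.8, 32.0 and 24.6 against 66.4, 43.4, 50.0 and 47.5 (-0.68, SE 0.26, -1.26 to -0.11, adjusted p = 0.328). The other HIRA genes were Ubn2 (-0.59, -1.05 to -0.13), Ubn1 (-0.40, -0.85 to 0.05) and Cabin1 (-0.30, -0.63 to 0.03). Among all 20373 genes tested, 4.22% lay lower without overlap, 9.9% did not overlap in either direction, and 0.0245% were called. By edgeR 0 of 10 members were called, 4 had an unadjusted p below 0.05 (12.2% of all genes did), DESeq2 called Asf1a (-0.47, adjusted p = 0.0396, with 578 genes called in all), and voom called 0. The median over the 10 members was -0.35, beside -0.00 over all genes. Without the library labelled K27M-AP T 4, Asf1a was -0.46, Hira -0.52, Ubn2 -0.49, Ubn1 -0.26 and Cabin1 -0.23. Markers of other cells in the same comparison were not called: astrocyte markers had a median of -2.80 (0 of 4 positive; summed 213 to 1312 CPM before and 102 to 163 in the tumours), and oligodendrocyte lineage markers -1.83 (1 of 6 positive; 1448 to 2439 and 912 to 1775 CPM). Neuronal markers had a median of -0.53 (2 of 6 positive) and proliferation genes 0.57 (9 of 10 positive). Their part in the chaperone values was not tested. K27M-AP 4, the library low in Nes and Mki67, is among the preneoplastic libraries of this comparison. Without it, edgeR called 0 genes in all.

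Tumours of the K27M-APP set did not show the same values. Against K27M-APP, Asf1a was -0.06 (95% interval -0.42 to 0.30), Hira -0.45 (-1.08 to 0.18), Ubn1 0.13, Ubn2 0.03 and Cabin1 -0.02. By edgeR 0 of 10 members were called in K27M-APP T against K27M-APP, as were 0 genes in all, and 0 by DESeq2, voom or an unadjusted p below 0.05 (3.33% of all genes). The difference between the 2 tumour changes was 0.41 for Asf1a (-0.07 to 0.90, adjusted p = 0.913 by edgeR), 0.62 for Ubn2 (-0.07 to 1.32) and 0.24 for Hira (-0.62 to 1.09). Without the library labelled K27M-AP T 4 these were 0.40, 0.51 and 0.06. So a difference between the sets was not detectable with these numbers of libraries (0 of 10 called, 0 at an unadjusted p below 0.05, beside 3.55% of all genes). Mcm9 overlaps Asf1a on the opposite strand with 16449 reads against 46974. K27M-APP T against K27M-AP T gave 0 of 10 called by any of the 3 tests (1 at an unadjusted p below 0.05, Ubn1, at 0.48, or 0.27 without K27M-APP T 3 and 0.34 without the library labelled K27M-AP T 4, beside 2.67% of all genes, and 0 without overlap, beside 2.66%), and both tumour sets averaged against both preneoplastic ones gave 0 of 10, with 0.0736% of all genes called, 2 members at an unadjusted p below 0.05, beside 10% of all genes, and 0 without overlap, beside 0.923%.

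**Figure D4:**
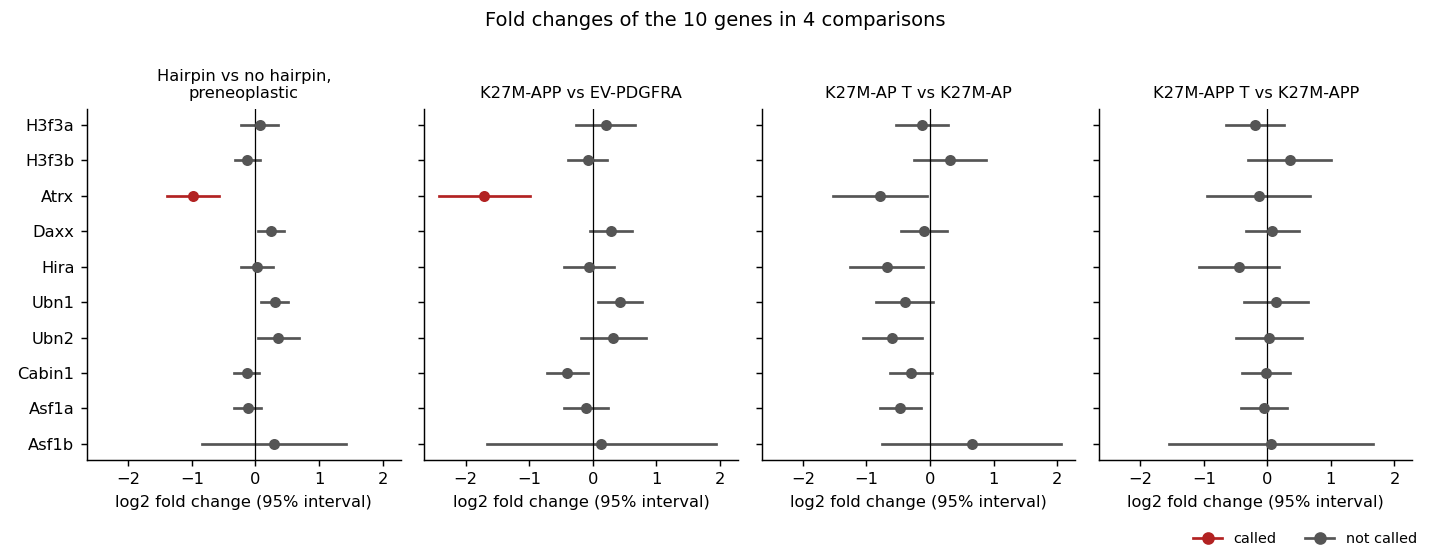
Log2 fold changes (points) with 95% intervals (lines) of the 10 genes from edgeR in 4 comparisons, red where the adjusted p was below 0.05 and grey elsewhere. Atrx is red at -0.99 and -1.71, and in K27M-AP T against K27M-AP the HIRA genes and Asf1a lie between -0.68 and -0.30 without a call.

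The remaining comparisons called no member. WT-AP against EV ctl, which adds wild-type H3.3, Trp53 loss and the hairpin, gave 0 of 10 by edgeR, DESeq2 and voom, 1 at an unadjusted p below 0.05 (H3f3b, -0.34, 95% interval -0.63 to -0.05, and -0.47 to -0.20 with a library left out), and 2 without overlap, beside 0.312% of all genes called, 10% at an unadjusted p below 0.05 and 20.2% without overlap. EV-PDGFRA against EV ctl, which adds Pdgfra alone, gave the same counts of 0 called and 1 at an unadjusted p below 0.05, again H3f3b (-0.37, -0.68 to -0.06), with 0 genes called in all and 7.03% at an unadjusted p below 0.05. There 3 of 10 members did not overlap (H3f3b and Ubn1 lower, Hira higher), beside 23.6% of all genes. Mutant against wild-type H3.3, K27M-AP against WT-AP, gave 0 of 10 by each test and 0 at an unadjusted p below 0.05, beside 0.0297% of all genes called, 3.95% at an unadjusted p below 0.05 and 1.97% without overlap, where members had 0. There the intervals ran from -0.27 to 0.24 for Daxx, -0.05 to 0.43 for H3f3b and -0.30 to 0.42 for H3f3a. K27M-APP against K27M-AP gave 0 of 10 by each test, with H3f3b alone at an unadjusted p below 0.05 (5.94% of all genes) and 2 members without overlap, Atrx and H3f3b (19% of all genes).

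Other genes around these factors were read from 4 lists. In the averaged hairpin comparison, 3 of the 12 tested partners of Atrx and Daxx in heterochromatin and PML bodies passed edgeR's test. Pml, which encodes the scaffold of PML bodies, where Daxx resides, fell by 0.71 (SE 0.18, adjusted p = 0.0280), from 15.9 to 23.1 CPM in the 5 libraries without the hairpin to 6.43 to 15.3 in the 10 with it. Cbx1, the HP1 beta gene, rose by 0.50 (SE 0.13, adjusted p = 0.0292). Atf7ip, a partner of the methyltransferase Setdb1, rose by 0.68 (adjusted p = 0.0420), while a second row of that symbol, with fewer reads, gave 0.65 (adjusted p = 0.0505). The list's median was 0.16, beside 0.01 over all genes, and 8.79% of all genes were called. None of the 3 calls was left without EV ctl 5, EV-PDGFRA 1, EV-PDGFRA 3, K27M-APP 1 or K27M-APP 2, each left out alone, or within either table.

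The other 3 lists held no called gene by edgeR in this comparison, and none of the 4 lists held one in the remaining comparisons. In the averaged hairpin comparison 10253 of all 20197 genes had positive values. Of the 13 replication-coupled and general H3 chaperones, 11 did, with a median of 0.13, and their most abundant gene was Rbbp4, at 306 to 419 CPM per library. Of 14 other factors tied to H3.3 or nucleosome exchange, 13 had positive values, with a median of 0.15 and Npm1 the most abundant at 221 to 561 CPM. Of 11 telomere maintenance genes, 9 had positive values, with a median of 0.21 and Dkc1 the most abundant at 25.4 to 116 CPM; 3 were called without K27M-AP 4, and 1 by DESeq2 or without EV ctl 4. All 10 proliferation genes also had positive values there, with a median of 0.74 and none called, and the part of dividing cells in the values of these lists was not tested. Tert, the telomerase gene, stayed at or below 1.89 CPM in every library.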

How the data were processed

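Libraries were paired-end and made after removal of ribosomal RNA, per the labels. Both tables the authors deposited hold whole-number read counts by gene, unscaled. From the submitters' processing notes come the names mm10, featureCounts 1.4.4, STAR 2.3.0e, Picard, Trimmomatic 0.32, GATK and SAMtools 0.1.19; annotation, strand setting and handling of multiple matches are not given in the sources used here. Columns were matched by title, 12 libraries were identical in both tables, and 8 columns of other samples were not used. The design text gives other sample numbers (16 preneoplastic and 5 tumour) than the labels.

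Counts were tested with edgeR 4.0.16 in R 4.3.3: TMM scaling, filterByExpr (minimum count 10, minimum total 15), a quasi-likelihood fit of group means, and Benjamini-Hochberg adjustment over all genes. One fit held 15 preneoplastic libraries (20197 genes, 10 residual degrees of freedom, biological coefficient of variation 0.399), the other 13 libraries of the K27M-AP and K27M-APP sets with their tumours (20373 genes, 9 degrees, 0.475). Scripts were tested on simulated data. The members and lists were chosen with earlier results of these data known. All members are given everywhere; of each list, up to 2 called genes a direction are named, or else the most abundant (Tert and Trp53 were named after their values were seen). Similar genes are those of highest Pearson r among genes averaging 10 CPM or more, with predicted genes left out. Lengths and coordinates are GENCODE's for GRCm38. Alternatives were DESeq2 1.42.0 (size factors or test), limma 3.58.1 voom with sample weights, no low-count filter, a replicate block, a table term, each table alone, other sets of libraries in the fit, and each library left out. Contrasts defined within 1 table and the joint removal of EV ctl 5 and K27M-AP 4, or of K27M-AP 4 and K27M-AP T 4, were chosen after seeing the data.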

Additional observations from a re-analysis of the deposited data

Results flagged for a closer look

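Ubn1 in K27M-APP T 3, at 132 CPM, stood apart from the other K27M-APP T libraries (85.7, 86.6 and 77.6 CPM) by Dixon's test for a single distant value. Of 30 combinations of a member and a group of at least 4 libraries, 1 was marked in this way, and chance marks about 1 in 20.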

How the results depend on the processing

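The fall of Atrx in the averaged hairpin comparison kept its direction under all 25 alternatives and was called in 24, at -1.16 to -0.77; leaving out each library gave -1.09 to -0.89 (adjusted p = 0.000906 to 0.0332), and the exception was the later table alone (-0.77, adjusted p = 0.567), which holds 7 of the 15 libraries. There 0 members were called, against 3 by DESeq2 (Atrx, Daxx and Ubn1, with 3073 genes called in all) and 1 by edgeR (with 1775 in all). In K27M-APP against EV-PDGFRA, edgeR called 1 member and voom 3, a fit of all 23 libraries 0, and fits without a library 0 to 1. In K27M-AP T against K27M-AP, DESeq2 called 1 against 0; the causes of these differences were not tested. Counts over all genes moved more: 3 to 3073 in the averaged hairpin comparison (1775 by edgeR), 44 to 5142 in K27M-APP against EV-PDGFRA (392) 0 to 578 in K27M-AP T against K27M-AP (5), 0 to 574 for both tumour sets averaged (15), 2 to 448 in WT-AP against EV ctl (63) and 0 to 64 in K27M-AP against WT-AP (6). From 0 by edgeR they reached 101 in EV-PDGFRA against EV ctl, 62 in K27M-APP T against K27M-APP, 11 in K27M-APP T against K27M-AP T, 6 in K27M-APP against K27M-AP and 2 for the difference of tumour changes. No called value changed sign. Of 2010 values of single members under alternatives, 1975 kept their direction and side of the threshold or moved by less than 1 SE, and 24 were uncalled values that changed sign by more; 20 of 804 counts of called genes in the 4 lists moved. The hairpin contrast as defined could not be had within either table, since the earlier lacks EV ctl and the later K27M-APP, and comparisons of groups absent from a table were not run there.

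With the replicate number as a block, Atrx was -1.11 in the averaged hairpin comparison (adjusted p = 0.0122), and the members called were the same in number in every comparison. Whether the numbers pair the samples is not given in the sources used here. The correlation of deviations between same-numbered libraries was -0.219, 0.511 and 0.636 for WT-AP and K27M-AP, and -0.131 and -0.153 for K27M-AP and K27M-APP. Between K27M-AP T and K27M-APP T all 3 libraries correlated best with their own number, which is a hint from the data and not from the design. For WT-AP with K27M-AP it was 2 of 3, and for K27M-AP with K27M-AP T also 2 of 3. Libraries numbered 1 and 2 all came from the earlier table and those numbered 3 to 5 from the later one alone. A match by number is thus in part a match by table, and the replicate block also takes up the table.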
